A study of Caenorhabditis elegans with 12 samples.

Results

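The genes examined here are 10 enzymes that remove superoxide and peroxide in Caenorhabditis elegans: the superoxide dismutases sod-1 to sod-5, the catalases ctl-1 to ctl-3, the mitochondrial peroxiredoxin prdx-3 and the mitochondrial thioredoxin trx-2. They were chosen by gene symbol from a written list, and all 10 were found among the 45132 genes of the count table. All 10 also passed the filter on low counts, which kept 12850 genes, although sod-5 passed mainly through the group in which it was high. Whole worms of the glp-4(bn2) strain, a temperature-sensitive allele that blocks germline growth in the warmth, were collected on day 1 of adulthood and their polyA RNA was sequenced. The 4 groups of 3 libraries were control RNAi (bacteria with the empty vector L4440), control RNAi plus atp-2 RNAi, prp-19 RNAi alone, and the 2 targeted RNAi treatments together. Libraries with the prp-19 label are called prp-19-labelled. A replicate number given for them means the group without atp-2 RNAi, and the group with both treatments is called doubly labelled. The glp-4(bn2) allele is shared by every group, and the growth temperature and worms per library are not stated in the labels. ATP synthase of mitochondria contains the product of atp-2, while prp-19 encodes a splicing factor.

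Superoxide is formed when electrons leak from the respiratory chain, and superoxide dismutases convert it to hydrogen peroxide and oxygen. Catalases and peroxiredoxins then break down the peroxide, and thioredoxin returns oxidised peroxiredoxin to its active form. In C. elegans, sod-1 and sod-5 encode cytosolic copper-zinc enzymes, sod-2 and sod-3 encode mitochondrial manganese enzymes, and sod-4 encodes an extracellular copper-zinc form. The catalase ctl-1 is cytosolic and ctl-2 is peroxisomal. sod-3 is widely used as a reporter of the insulin-regulated transcription factor DAF-16.

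Library totals lay between 6731808 and 8802767 counts. The mRNA of atp-2 fell from 1618 ± 15.4 to 267 ± 16.3 CPM (counts relative to library size scaled by TMM factors; SD, n = 3) with atp-2 RNAi on control bacteria, a log2 change of -2.60 (SE 0.0902, edgeR adjusted p = 8.684e-14). In the prp-19-labelled libraries it fell less, from 1013 ± 146 to 504 ± 7.42 CPM (SD, n = 3; log2 change -1.01, SE 0.0857, edgeR adjusted p = 2.017e-07), and the difference between these changes was 1.59 (edgeR adjusted p = 3.319e-08). The prp-19 mRNA went against its label: it was 24.3 to 28.0 CPM in the control libraries and 37.9 to 84.1 CPM in the prp-19-labelled libraries (log2 change 1.04, edgeR adjusted p = 0.0401). That call was lost in 9 of 19 alternative settings, and without replicate 1 of the latter group the change was 0.56 (adjusted p = 0.121). With atp-2 RNAi, prp-19 mRNA was 27.8 ± 0.208 CPM on control bacteria and 29.3 ± 11.3 CPM in the doubly labelled libraries (SD, n = 3; log2 change 0.074, edgeR adjusted p = 0.887). Replicate 3 of the prp-19-labelled libraries stood apart from replicates 1 and 2, with a chi-square per degree of freedom of 43.0 and 23.8 against 1.44 to 9.34 for the other replicate pairs. Calls of members that change without it are given both ways, as are most of the list counts.

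Marker genes were summed to describe the cell types in the worms. The 13 listed germline and oocyte genes, all in the table, summed to 46.2 to 58.3 CPM in the control libraries, 71.1 to 71.8 CPM with atp-2 RNAi, 160.1 to 186 CPM in the prp-19-labelled libraries and 147 to 163 CPM in the doubly labelled libraries. Most of that sum was glh-1, at 33.3 CPM on average in the control libraries and 144 CPM in the prp-19-labelled libraries without atp-2 RNAi. Between the same groups oma-2 went from 2.80 to 9.90 CPM, oma-1 from 0.282 to 1.03 CPM, puf-5 from 0.395 to 1.496 CPM and cbd-1 from 2.83 to 4.75 CPM, while rme-2 (1.04 and 1.02 CPM) and egg-1 (0.289 and 0.319 CPM) moved little. glh-2 was lower, at 1.126 CPM in the control libraries and 0.749 CPM in the prp-19-labelled libraries without atp-2 RNAi. meg-1 was at 0 in the control libraries. The 7 sperm genes summed to 4.22 to 8.85 CPM over all libraries, most of it spe-41 (group means 3.49 to 4.99 CPM) and msp-31 (0.682 to 1.65 CPM). spe-11 averaged 0.118 CPM in the control libraries and 1.38 CPM by the prp-19 label, and msp-3 and msp-56 were at 0 in all 12 libraries. The 8 listed intestinal genes, none of them at 0, summed to 83586 to 106886 CPM in the control libraries and 59407 to 62599 CPM with atp-2 RNAi. Their sums were 21508 to 64043 CPM in the prp-19-labelled libraries and 43857 to 49179 CPM with both. Without the vitellogenin vit-2 the other 7 summed to 8321 to 9600.4, 6478 to 6685, 5121 to 7677 and 6915 to 7007 CPM in that order. Most of that was asp-1 and cpr-6, at 4490 and 2906 CPM on average in the control libraries. ifb-2 averaged 217 CPM in the control libraries, 256 CPM in the prp-19-labelled libraries and 324 CPM when doubly labelled. elt-2 was likewise higher, at 31.4, 35.6 and 40.4 CPM. The remaining intestinal genes were lower than control in both of these groups. The 6 hypodermal genes, none at 0, summed to 6784 to 7391 CPM in the control libraries and 10861 to 11419 CPM with atp-2 RNAi, the group in which the mitochondrial enzymes were high. With the prp-19 label they summed to 7556 to 8857 CPM, and 9389 to 9855 CPM when doubly labelled. Most of the hypodermal sum was col-140, at 5548 CPM on average in the control libraries and 8192 CPM with atp-2 RNAi, and col-19 (1529 and 2916 CPM). Between these groups dpy-7 (0.283 and 1.43 CPM) and rol-6 (0.766 and 2.05 CPM) also rose. elt-3 (32.5 and 27.9 CPM) and nhr-25 (4.04 and 3.72 CPM) went the other way. Over all libraries the 5 muscle genes summed to 3882 to 7929 CPM and the 6 neuronal genes to 276 to 382 CPM, with none at 0. The part of these shifts in the results below was not tested. In RNA from whole worms, fewer cells of a type and less RNA per cell cannot be told apart.

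The genes lie on 4 autosomes and the X chromosome of WBcel235, in the Ensembl annotation. The catalases form a tandem cluster on the minus strand of chromosome II, with ctl-2 at 14299556 to 14302027, ctl-1 at 14303568 to 14306260 and ctl-3 at 14307798 to 14310779, separated by 1540 and 1537 bases. Similar copies can share reads. How alike these genes are was not measured, and the treatment of shared reads is not known here. The division of counts between the 3 catalases is therefore uncertain. Chromosome II also carries sod-1 (6972706 to 6973887) and sod-5 (4417633 to 4419130). The mitochondrial genes are dispersed: sod-2 is on chromosome I (8434550 to 8435807), sod-3 on X (17092753 to 17094306), prdx-3 on III (4407444 to 4408437) and trx-2 on V (10314671 to 10315294). sod-4 is on III (9496884 to 9500375) and shares 175 exon bases with ctr-9 on the opposite strand.

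Compared per length, as TMM-scaled CPM per kilobase of exon (RPKM), the cytosolic sod-1 was the most abundant of the 10 genes in the control libraries, at 798 ± 47.5 RPKM (SD, n = 3). Next came ctl-2 (197 to 218 RPKM), sod-3 (178 to 210 RPKM) and prdx-3 (174 to 193 RPKM), whose neighbouring ranges overlapped. trx-2 (58.5 to 61.4 RPKM) and sod-2 (51.0 to 64.4 RPKM) overlapped likewise. They were followed by sod-4 (25.2 to 26.3 RPKM) and ctl-1 (20.7 to 23.8 RPKM), which did not overlap. ctl-3, at 2.17 to 2.44 RPKM, and sod-5, at 0.500 to 0.902 RPKM, were the least abundant. With atp-2 RNAi on control bacteria, sod-3 at 462 to 470 RPKM (mean 466) and prdx-3 at 331 to 361 RPKM moved above ctl-2 at 136 to 142 RPKM.

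**Figure D1:**
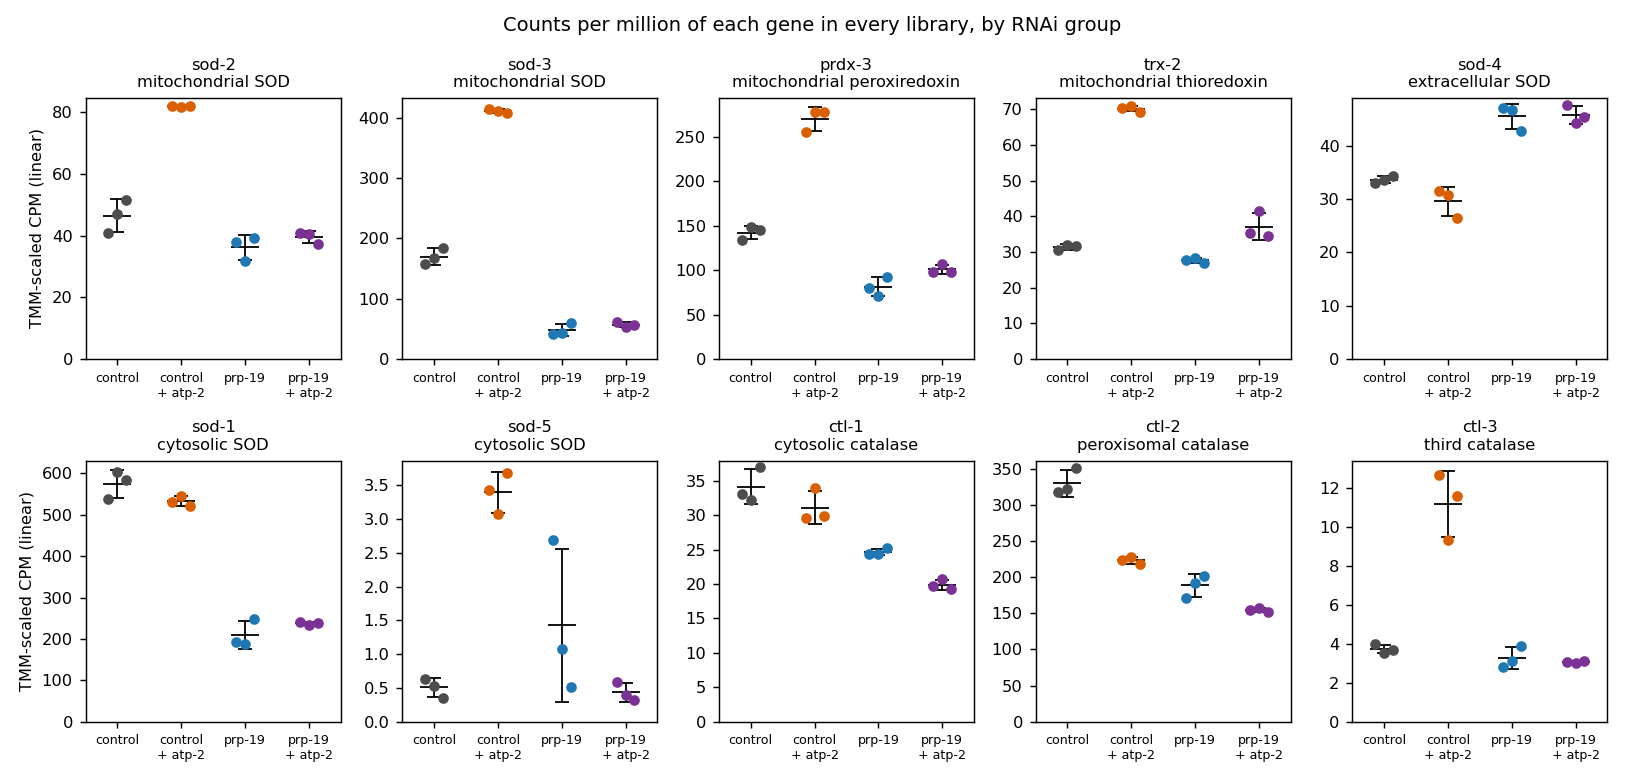
Each panel shows 1 gene, with TMM-scaled CPM on a linear axis from 0 and the 4 RNAi groups along the other; points are libraries and black marks are the mean and SD of 3 libraries. For sod-2, sod-3, prdx-3 and trx-2 the libraries with atp-2 RNAi on control bacteria lie above every other library, and sod-1 separates by the prp-19 label instead.

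The first comparison asked which of these enzymes changed with atp-2 RNAi when prp-19 was not targeted. The mitochondrial members rose together: sod-2, sod-3, prdx-3 and trx-2 were each higher by 1.76-fold to 2.42-fold. The abundant cytosolic and peroxisomal members did not rise, and the peroxisomal catalase ctl-2 fell. Of the 10 genes, 7 were called (34.1% of all tested genes were), 6 of them higher (17% of all genes) and 1 lower (17.1%). Their median log2 change was 0.87, against 0.026 over all genes tested. The CPM ranges of 8 members did not overlap between the groups (49.8% of all genes). Because sod-5 passed the filter mainly where it was high, its rise followed in part from that choice, and without it 6 of 9 genes were called, 5 higher and 1 lower. A gene was called at an adjusted p under 0.05 in edgeR's quasi-likelihood test, with Benjamini-Hochberg adjustment over all genes.

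sod-3, the mitochondrial manganese dismutase linked to DAF-16, stood at 157, 167 and 185 CPM in the control libraries and at 414, 411 and 407 CPM with atp-2 RNAi. All 3 treated libraries lay far above the 3 controls, and they differed little from each other. The log2 change was 1.28 (SE 0.108, edgeR adjusted p = 6.165e-08). The other mitochondrial dismutase, sod-2, went from 40.9, 46.9 and 51.7 to 82.0, 81.8 and 82.1 CPM, a log2 change of 0.82 (SE 0.0925, edgeR adjusted p = 9.945e-07), again without overlap. The 21 exon bases that sod-2 shares with dpt-1 on the opposite strand, and the 89 that sod-3 shares with C08A9.3 and lido-1, could receive reads of either gene if strand was not used. dpt-1 averaged 64.4 and 77.0 CPM in these groups, and lido-1 averaged 3.24 and 3.39 CPM.

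Within each library, sod-3 was 3.25 to 3.49 times as abundant per length as sod-2 in the controls and 4.51 to 4.59 times with atp-2 RNAi. This ratio does not depend on library scaling, and the groups did not overlap. Its exact permutation test (two-sided, 3 against 3 libraries) gave p = 0.1, the smallest the design allows, and 0.133 after Benjamini-Hochberg adjustment over 20 such ratio comparisons.

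The mitochondrial peroxide-removing pair moved in parallel with the dismutases. prdx-3 went from 134, 148 and 145 CPM to 255, 278 and 278 CPM (log2 change 0.93, SE 0.0866, edgeR adjusted p = 8.328e-08). trx-2, which encodes the thioredoxin of mitochondria, went from 30.6, 32.1 and 31.7 CPM to 70.3, 70.9 and 69.3 CPM (log2 change 1.16, SE 0.0831, edgeR adjusted p = 2.37e-09). For both genes the lowest treated library exceeded the highest control. trx-2 shares 47 exon bases with asps-1 on the opposite strand, which averaged 13.8 and 14.1 CPM in these groups.

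The cytosolic sod-1 showed no such change: it was 537, 604 and 583 CPM in the controls and 531, 546 and 521 CPM with atp-2 RNAi. The ranges overlapped, and the log2 change was -0.11 (95% interval -0.31 to 0.094, edgeR adjusted p = 0.371). The minor cytosolic dismutase sod-5 behaved otherwise, with 4, 3 and 2 counts in the control libraries and 30, 26 and 27 counts with atp-2 RNAi (log2 change 2.69, SE 0.490, edgeR adjusted p = 0.0002424). Even so, sod-5 remained below sod-1 by far, at 3.08 to 3.68 CPM. The extracellular sod-4 was 32.9, 33.7 and 34.4 CPM in the controls and 31.4, 30.8 and 26.4 CPM with atp-2 RNAi, and it was not called (log2 change -0.18, adjusted p = 0.125).

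The catalases split. The abundant peroxisomal ctl-2 fell from 318, 321 and 351 CPM to 224, 228 and 218 CPM (log2 change -0.56, SE 0.0733, edgeR adjusted p = 5.907e-06), with no overlap between the groups. The low-count ctl-3 rose, from 25, 20 and 21 counts to 111, 79 and 85 counts (log2 change 1.58, SE 0.182, edgeR adjusted p = 1.323e-06). The cytosolic ctl-1 was 32.2 to 37.0 CPM in the controls and 29.6 to 33.9 CPM with atp-2 RNAi, ranges that overlapped, and was not called (log2 change -0.13, adjusted p = 0.287). Summed over the 3 genes, catalase transcripts were 221 to 244 RPKM in the controls and 162 to 169 RPKM with atp-2 RNAi. Except through length, this sum does not depend on how reads were divided among the genes, but it would miss shared reads that were discarded. ctl-2 shares 65 exon bases with Y54G11A.7 on the opposite strand, which averaged 61.4 and 80.0 CPM in these groups.

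The second comparison asked the same in the prp-19-labelled libraries. There the mitochondrial dismutases did not pass the test, and the peroxiredoxin and thioredoxin rose by smaller amounts. Of the 10 genes 5 were called (9.77% of all genes), 2 higher (5.06%) and 3 lower (4.72%), with a median log2 change of 0.066 against -0.0029 over all genes, and 4 did not overlap in CPM (24.5%). This count was unstable: it was 1 in a fit of these 6 libraries alone, 2 with library totals, 3 with DESeq2 and 1 to 6 when single libraries were left out. The 6 came without replicate 3 of the prp-19-labelled libraries. The share over all genes moved as well. It was 4.38% in the 6-library fit, 7.41% with library totals, 8.7% with DESeq2, and 5.31% to 22% when single libraries were left out. The 22% also came without that replicate 3. The count of members was 1 without replicate 2 of the prp-19-labelled libraries or any single doubly labelled library, and 2 without replicate 1 of the former. It was 3 without control replicate 1 or 2, or replicate 1 or 3 of the controls with atp-2 RNAi.

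trx-2 was 27.8, 28.2 and 26.9 CPM in the prp-19-labelled libraries and 35.3, 41.4 and 34.5 CPM with atp-2 RNAi, without overlap. Its log2 change of 0.42 (SE 0.0840, edgeR adjusted p = 0.002982) was called in every alternative but library totals (0.34, adjusted p = 0.0618). prdx-3 went from 80.6, 71.0 and 92.5 CPM to 97.5, 107 and 98.5 CPM, also without overlap, a log2 change of 0.31 (SE 0.0885, edgeR adjusted p = 0.03063). That call was lost in 7 of 19 alternatives, among them the fit of these 6 libraries alone (adjusted p = 0.13), library totals (0.24, adjusted p = 0.115), and leaving out replicate 1 or 2 of the prp-19-labelled libraries or any replicate with both RNAi labels.

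For sod-3 the values were 40.7, 43.4 and 60.0 CPM without and 62.1, 53.5 and 56.1 CPM with atp-2 RNAi. Replicate 3 of the first group lay among the treated libraries, and the log2 change of 0.26 was not called (95% interval -0.013 to 0.52, edgeR adjusted p = 0.193). Without that replicate it was 0.46 (adjusted p = 0.000217), and with no filter on low counts it was 0.27 (adjusted p = 0.0468). sod-2 was 38.1, 31.7 and 39.1 CPM without and 40.8, 40.5 and 37.3 CPM with atp-2 RNAi, overlapping groups with a log2 change of 0.12 (95% interval -0.095 to 0.34, adjusted p = 0.467).

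Outside the mitochondria, sod-1 had a log2 change of 0.19 (adjusted p = 0.216), which became 0.34 (adjusted p = 0.0003264) without replicate 3 of the prp-19-labelled libraries. ctl-2 fell from 171, 192 and 202 CPM to 154, 157 and 152 CPM (log2 change -0.28, SE 0.0738, edgeR adjusted p = 0.01835). This call was lost in 5 alternatives: leaving out prp-19-labelled replicate 2 (adjusted p = 0.0611), fitting these 6 libraries alone (0.107), and leaving out doubly labelled replicate 1, 2 or 3 (0.0727, 0.0557 and 0.0749). The call of ctl-1 (log2 change -0.31, adjusted p = 0.0429) was lost in 14 of 19 alternatives, among them without replicate 3 of the prp-19-labelled libraries (adjusted p = 0.053). That of sod-5 (log2 change -1.70, adjusted p = 0.0496) was lost in 12 of 17, and rested on 23, 10 and 4 counts against 5, 3 and 3. Without replicate 1 of the prp-19-labelled libraries it was -0.88 (adjusted p = 0.391). Neither sod-4 (log2 change 0.0068, adjusted p = 0.977) nor ctl-3 (log2 change -0.084, adjusted p = 0.875) was called.

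**Figure D2:**
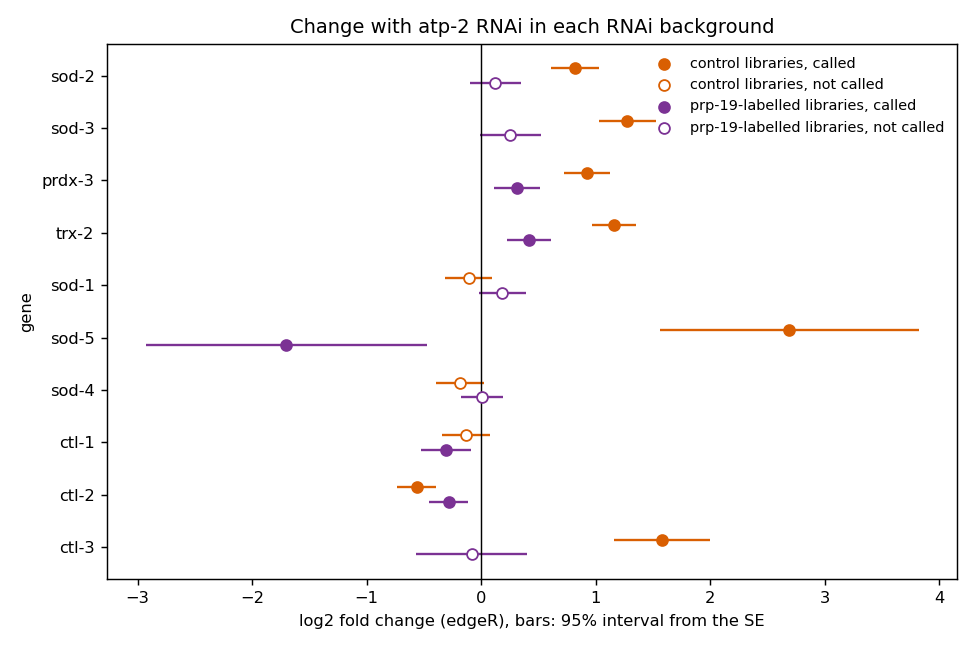
Points give the edgeR log2 fold change with atp-2 RNAi for each gene in the control libraries (orange) and in the prp-19-labelled libraries (purple), 3 libraries a group; bars are 95% intervals from the standard error, and filled points were called at an adjusted p under 0.05. For sod-2, sod-3, prdx-3, trx-2, sod-5 and ctl-3 the orange interval lies wholly to the right of the purple one.

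Whether the response differed between the RNAi backgrounds was tested as an interaction, the atp-2 change in the prp-19-labelled libraries minus that in the control libraries. It was called for 6 of the 10 genes (19.3% of all genes), and in all 6 the value was negative (9.14% of all genes, while 10.1% were called positive). Without sod-5, which the filter kept mainly for its high group, it was called for 5 of 9 genes. These were the 4 mitochondrial members with sod-5 and ctl-3, the same genes that rose on control bacteria. Over all genes, 7.95% combined a rise with atp-2 RNAi on control bacteria with a negative interaction call, which is 1021 of the 2182 genes that rose. The same control libraries enter both contrasts, so a rise there goes in part by construction with a negative interaction. Every one of these 6 calls held in all 18 alternatives.

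The interaction was -1.02 for sod-3 (SE 0.159, edgeR adjusted p = 0.0002093), which was -0.81 without replicate 3 of the prp-19-labelled libraries. For sod-2 it was -0.69 (SE 0.133, adjusted p = 0.001011), for prdx-3 -0.61 (SE 0.124, adjusted p = 0.001543) and for trx-2 -0.74 (SE 0.118, adjusted p = 0.0002). ctl-3 gave -1.66 (SE 0.282, adjusted p = 0.0003416) and sod-5 -4.39 (SE 0.730, adjusted p = 0.0002806), the latter from low counts. The fall of atp-2 mRNA itself was smaller in the prp-19-labelled libraries, as given above, and its part in these differences was not tested.

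For the other members the interaction was not called. It was 0.30 for sod-1 (95% interval 0.0053 to 0.59, adjusted p = 0.11), 0.28 for ctl-2 (0.038 to 0.52, adjusted p = 0.0689), 0.19 for sod-4 (-0.088 to 0.47, adjusted p = 0.302) and -0.18 for ctl-1 (-0.48 to 0.12, adjusted p = 0.381). Without replicate 3 of the prp-19-labelled libraries, the interaction was called for sod-1 (0.46, adjusted p = 0.0001542) and ctl-2 (0.35, adjusted p = 0.004066). In that fit 27.3% of all genes were called. DESeq2 also called ctl-2 (0.30, adjusted p = 0.042). With library totals sod-1 and ctl-2 turned to -0.038 and -0.064, not called, and ctl-1 was called at -0.52 (adjusted p = 0.0145). Library totals shift the median of all genes in this contrast to -0.378, from -0.033 with TMM.

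The third comparison set the prp-19-labelled libraries against the control libraries, first without atp-2 RNAi. The largest falls were those of sod-3 and sod-1, which stood at 0.283-fold and 0.364-fold of their control levels. Of the 10 genes 8 were called (58.5% of all genes), 6 lower (28.5%) and 2 higher (30%), with a median log2 change of -0.41 against 0.064 over all genes, and 8 did not overlap in CPM (60.2%). The calls of sod-1, sod-3, ctl-2, prdx-3 and sod-4 held in all 19 alternatives.

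sod-1 was 537, 604 and 583 CPM in the control libraries and 192, 188 and 248 CPM in the prp-19-labelled libraries, a log2 change of -1.46 (SE 0.0907, edgeR adjusted p = 1.045e-10). sod-3 was 157, 167 and 185 CPM against 40.7, 43.4 and 60.0 CPM (log2 change -1.82, SE 0.115, edgeR adjusted p = 4.777e-10). In both genes the groups were far apart, and replicate 3 was the highest of the prp-19-labelled libraries. sod-1 shares 85 exon bases with the noncoding C15F1.13 on the opposite strand, which averaged 107 CPM in the control libraries and 33.5 CPM in the prp-19-labelled libraries.

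Among the peroxide-removing members, ctl-2 was lower by a log2 change of -0.81 (SE 0.0737, edgeR adjusted p = 1.994e-08) and prdx-3 also by -0.81 (SE 0.0889, adjusted p = 2.656e-07). Neither gene overlapped between the groups. Smaller differences were those of ctl-1 (-0.47, adjusted p = 0.0002593) and sod-2 (-0.36, adjusted p = 0.003953). The value of trx-2 (-0.18, adjusted p = 0.0822) was not called with TMM factors, but was with RLE factors (-0.22, adjusted p = 0.0366) and without doubly labelled replicate 2 (-0.19, adjusted p = 0.0492). These 3 turned with library totals, which put the median of all genes at 0.544: with them ctl-1 was 0.014, sod-2 was 0.12 and trx-2 was 0.30 (adjusted p = 0.0253).

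In the opposite direction, sod-4 rose from 32.9, 33.7 and 34.4 CPM to 47.1, 46.7 and 42.8 CPM (log2 change 0.44, SE 0.0863, edgeR adjusted p = 0.0002626). Its antisense neighbour ctr-9 averaged 37.6 CPM in the control libraries and 71.7 CPM in the prp-19-labelled libraries, and how far reads of ctr-9 were counted for sod-4 was not tested. The value of sod-5 (1.47, adjusted p = 0.0334) rested on replicate 1, with 23 of its 37 counts. Without that replicate it was 0.65 (adjusted p = 0.357), and the call was also lost when control replicate 1, 2 or 3 was left out (0.057, 0.0738 and 0.108) and with DESeq2 (0.0811). ctl-3 was not called (-0.20, adjusted p = 0.461).

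With atp-2 RNAi in both groups, all 10 genes differed by the prp-19 label (53% of all genes), 9 lower (26.5%) and 1 higher (26.5%), and these 10 calls held in every alternative. The median log2 change was -1.11 against 0.027 over all genes, and none of the 10 overlapped in CPM (63.6% of all genes did not). Because sod-5 passed the filter mainly through the controls with atp-2 RNAi, its fall here followed in part from that choice. Without it 9 of 9 genes were called, 8 lower and 1 higher, with a median of -1.05. sod-3 stood at 53.5 to 62.1 CPM against 407 to 414 CPM in their control counterparts, 0.139-fold (log2 change -2.84, SE 0.116, edgeR adjusted p = 1.931e-12). prdx-3 (-1.42, SE 0.0873), sod-1 (-1.16, SE 0.0898), sod-2 (-1.05, SE 0.0909) and trx-2 (-0.92, SE 0.0787) were lower, each with an adjusted p of 9.759e-09 or smaller. ctl-3 (-1.86) and sod-5 (-2.92) were lower as well, at 78 counts against 275 and 11 counts against 83 over the 3 libraries of each group. ctl-1 (-0.65) and ctl-2 (-0.53) differed least among the lower genes. sod-4 was again higher, at 44.2 to 47.6 CPM against 26.4 to 31.4 CPM (0.63, SE 0.0843, adjusted p = 3.821e-06), beside ctr-9 at 71.1 against 40.5 CPM. The control groups of this comparison are the treated groups of the first, so the members' values in each are not independent of each other.

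**Figure D3:**
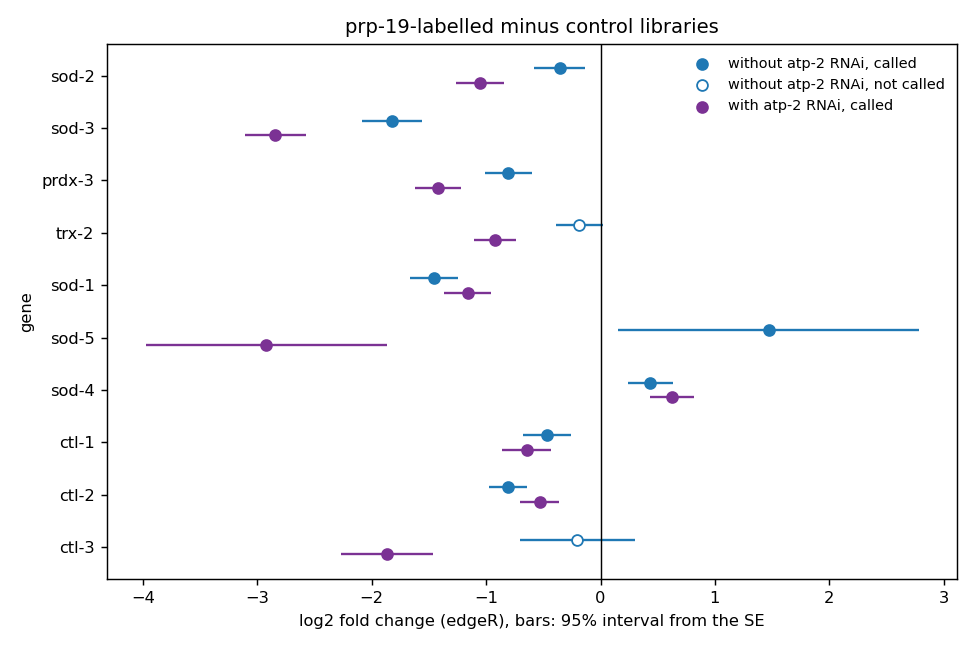
Points give the edgeR log2 fold change of each gene in the prp-19-labelled libraries relative to control RNAi, without atp-2 RNAi (blue) and with it (purple), 3 libraries a group; bars are 95% intervals from the standard error, and filled points were called at an adjusted p under 0.05. Only sod-4 lies right of 0 in both settings, and the purple point of sod-3 is at -2.84.

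Set against untreated control libraries, the worms with both RNAi labels had 8 of 10 members called (57.4% of all genes), 6 lower (27.6%) and 2 higher (29.8%), and 9 did not overlap in CPM (65.3%). sod-3 was lower at 0.338-fold (log2 change -1.57, SE 0.114, edgeR adjusted p = 2.646e-09), sod-1 at 0.414-fold and ctl-2 at 0.469-fold. prdx-3 was lower by a log2 change of -0.50 (SE 0.0880, adjusted p = 9.035e-05), which was not called with library totals (-0.091, adjusted p = 0.379). ctl-1 (-0.78) was lower and sod-4 (0.44) higher. The small values of trx-2 (0.23, adjusted p = 0.0266) and sod-2 (-0.23, adjusted p = 0.0456) lost their calls in 7 and 11 of 19 alternatives, and sod-2 became 0.17 with library totals. sod-5 (adjusted p = 0.802) and ctl-3 (adjusted p = 0.303) were not called.

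The balance between compartments was described by ratios within a library, which scaling factors leave unchanged. The mitochondrial forms sod-2 and sod-3 made up 22.9%, 22.3% and 24.7% of the summed RPKM of the 5 dismutase genes in untreated controls. With atp-2 RNAi on control bacteria their share was 42.7%, 42.0% and 43.0%. In the prp-19-labelled libraries it was 23.4%, 22.9% and 23.6%, and with atp-2 RNAi there it was 24.6%, 23.6% and 23.1%. The share was thus high in 1 group of 4, and the other 3 groups overlapped. These shares are sums over chosen genes, so no test is given.

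The similar shares hid different members. sod-3 made up 76.4% to 77.7% of mitochondrial dismutase RPKM in the control libraries and 81.9% to 82.1% with atp-2 RNAi. In the prp-19-labelled libraries it made up 49.3% to 58.3%, and 54.6% to 58.1% with atp-2 RNAi. sod-1 exceeded sod-2 by a factor of 12.58 to 14.6 in untreated controls, against 5.60 to 7.44 elsewhere. As summed RPKM, the 4 mitochondrial members reached 461 to 523 in the control libraries, 1038 to 1066 with atp-2 RNAi, 235.2 to 289 in the prp-19-labelled libraries and 304 to 329 with both. The cytosolic members sod-1, sod-5 and ctl-1 reached 768 to 860.0, 748 to 785, 279 to 361 and 339 to 348 RPKM in that order. The mitochondrial sum exceeded the cytosolic sum in each of the 3 control libraries with atp-2 RNAi and in no other library. This crossing depends on the genes chosen, because prdx-3 and trx-2 enter the first sum and the cytosolic peroxiredoxin prdx-2, not a member, is in neither. prdx-2 averaged 994 CPM in the control libraries and 931 CPM with atp-2 RNAi, so the sums do not compare whole compartments.

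**Figure D4:**
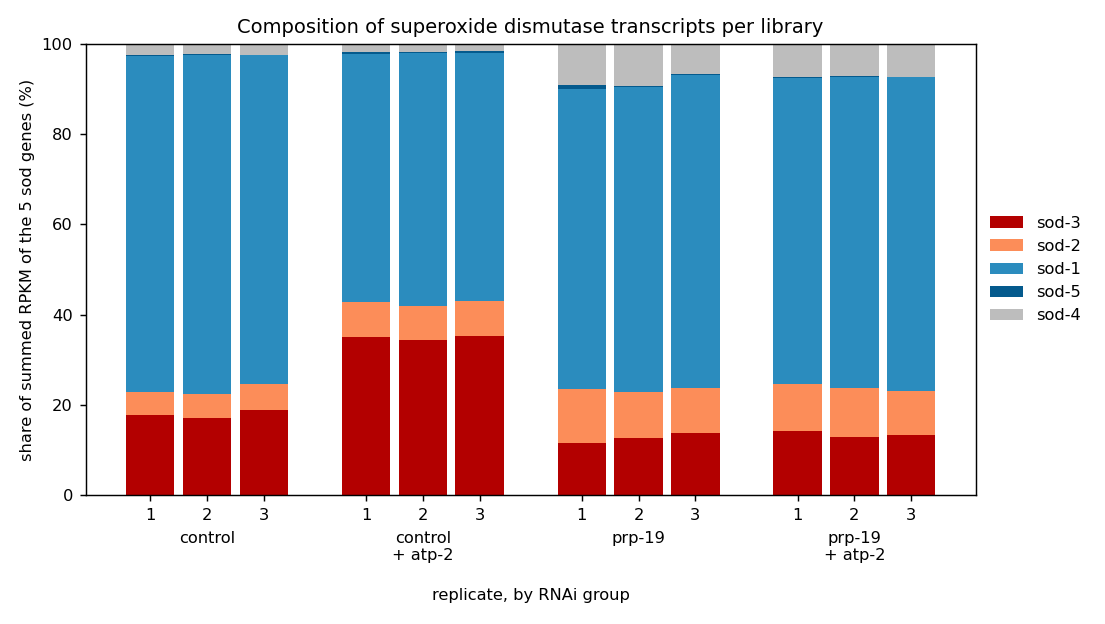
Stacked bars give, for each of the 12 libraries by RNAi group, the share of each gene in the summed RPKM of the 5 superoxide dismutase genes, in percent from 0 to 100. The red and orange part, sod-3 and sod-2, reaches 42.0% to 43.0% with atp-2 RNAi on control bacteria and 22.3% to 24.7% elsewhere, and the grey sod-4 part is widest in the groups labelled prp-19 RNAi.

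Related genes were followed in 7 written lists, whose counts can be read against the shares over all genes given above for each comparison. Among other thioredoxin and peroxiredoxin genes, 8 of 10 passed the filter, of which 2 rose and 3 fell with atp-2 RNAi on control bacteria (17% and 17.1% of all genes; median log2 change 0.0099). That count of 5 was unstable: it was 3 with DESeq2 and 2 without control replicate 3 or replicate 1 of the controls with atp-2 RNAi. It was also 3 without control replicate 1 or replicate 2 or 3 of those treated controls. The mitochondrial thioredoxin reductase trxr-2, which reduces thioredoxin in that compartment, rose from 7.99 ± 1.63 to 21.2 ± 1.01 CPM (SD, n = 3; log2 change 1.41, SE 0.142, edgeR adjusted p = 2.249e-07). In the prp-19-labelled libraries its change was 0.18 (adjusted p = 0.446), and its interaction was -1.23 (SE 0.199, adjusted p = 0.0002211). Its cytosolic counterpart trxr-1 had a log2 change of 0.23 (adjusted p = 0.0242), a call lost in 5 of 19 alternatives: DESeq2 (0.0578), control replicate 1 or 3 left out (0.1 and 0.0666) and treated control replicate 1 or 2 left out (0.0758 and 0.1). The cytosolic peroxiredoxin prdx-2 was 994 ± 42.1 CPM in the control libraries and 931 ± 28.3 CPM with atp-2 RNAi (SD, n = 3; log2 change -0.094, adjusted p = 0.344), but 0.17 (adjusted p = 0.0397) with library totals, which put the median of all genes at 0.293. By the prp-19 label it was lower, at 385 ± 35.0 CPM (SD, n = 3; log2 change -1.37, SE 0.0739, edgeR adjusted p = 1.516e-11). In the prp-19-labelled libraries, 0 of the 8 genes were called for atp-2 RNAi by edgeR or DESeq2 (2 had an unadjusted p under 0.05, both higher). Without replicate 3 of the prp-19-labelled libraries edgeR called 2, both higher. Then for the prp-19 label without atp-2 RNAi 1 was higher and 4 lower, a count of 5 that was 3 without control replicate 2 and in the fit of those groups alone.

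The glutathione list, with synthesis enzymes, glutaredoxins and glutathione peroxidases, had 14 of 15 genes tested. In the control libraries 4 rose and 4 fell with atp-2 RNAi (median -0.15), and in the prp-19-labelled libraries 2 rose and 1 fell (5.06% and 4.72% of all genes). The latter count of 3 was 0 in the fit of those 6 libraries alone and without doubly labelled replicate 2. It was 1 with DESeq2, with library totals, and without prp-19-labelled replicate 1 or doubly labelled replicate 1 or 3. Without prp-19-labelled replicate 3, edgeR called 9 in the control libraries and 4 in the prp-19-labelled libraries. The mitochondrial glutaredoxin glrx-5 rose from 16.4 ± 2.23 to 34.0 ± 2.11 CPM (SD, n = 3; log2 change 1.05, SE 0.119, edgeR adjusted p = 9.945e-07) on control bacteria. In the prp-19-labelled libraries its change was 0.35 (adjusted p = 0.073), and its interaction was -0.70 (SE 0.170, adjusted p = 0.006325). gcs-1, which catalyses the first step of glutathione synthesis, fell on control bacteria by a log2 change of -0.48 (adjusted p = 3.204e-05; -0.21 and 0.0801 with library totals), as did the glutathione peroxidase gpx-5 by -0.63 (adjusted p = 6.339e-06). The interaction of gpx-5 was 0.43 (adjusted p = 0.01567). By the prp-19 label without atp-2 RNAi, 6 of the 14 were lower and 1 higher, and gpx-7 was among the lower (16.7 ± 2.02 against 1.66 ± 0.521 CPM, SD, n = 3; log2 change -3.32, adjusted p = 7.453e-11).

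Of 10 genes for oxidant-producing oxidases and haem peroxidases, 8 were tested. With atp-2 RNAi 3 fell and 0 rose in the control libraries (median -0.32), and 3 fell and 0 rose in the prp-19-labelled libraries (median -0.22). At an unadjusted p under 0.05, 0 rose and 4 fell in each, and DESeq2 gave 0 rises in either. Without prp-19-labelled replicate 3, edgeR called 4 in each. The 3 falls became 1 in the control libraries with library totals. They became 1 in the prp-19-labelled libraries in the fit of those groups alone, without replicate 2, and without doubly labelled replicate 1 or 2. The peroxidase skpo-1 fell from 305 ± 27.8 to 8.25 ± 1.73 CPM in the former (SD, n = 3; log2 change -5.21, SE 0.119, edgeR adjusted p = 2.155e-16), and was 6.13 ± 0.698 and 1.46 ± 0.138 CPM in the latter. All 11 peroxisome import genes were tested. With atp-2 RNAi in the control libraries 1 rose and 3 fell (median -0.26), among them prx-11 by -1.18 (adjusted p = 1.147e-07), and 0 were called in the prp-19-labelled libraries by edgeR or DESeq2 (1 higher and 1 lower at an unadjusted p under 0.05). Without prp-19-labelled replicate 3, which enters the shared estimate of spread, edgeR called 7 in the controls (1 higher, 6 lower) and 1, higher, in the prp-19-labelled libraries. With library totals the count in the controls was 2.

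For the copper that cytosolic and extracellular dismutases need, 2 of 4 listed symbols were in the table. Both the copper transporter cua-1 and the copper chaperone cuc-1 were called higher with atp-2 RNAi in both backgrounds. The call of cua-1 in the prp-19-labelled libraries (log2 change 0.24, adjusted p = 0.0326) was lost in 7 of 19 alternatives: library totals (0.264), the fit of those 6 libraries alone (0.131), the replicate block, and without prp-19-labelled replicate 1 (0.0911) or doubly labelled replicate 1, 2 or 3 (0.125, 0.053 and 0.102). cuc-1 went from 31.9 ± 2.21 to 63.2 ± 1.83 CPM in the control libraries (SD, n = 3; log2 change 0.98, SE 0.0852, edgeR adjusted p = 2.909e-08) and from 18.4 ± 0.846 to 30.8 ± 2.42 CPM in the prp-19-labelled libraries (SD, n = 3; log2 change 0.75, SE 0.0914, adjusted p = 2.053e-05). Its interaction was -0.24 and was not called (adjusted p = 0.206), except with library totals (-0.58, adjusted p = 0.006255).

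Regulators were followed at the level of their own mRNA. Of 17 tested, 2 rose (pqm-1 and atfs-1) and 1 fell (wdr-23) with atp-2 RNAi in the control libraries, with a median of 0.029 against 0.026 over all genes. This count of 3 was 10, all higher, with library totals, 7 (5 higher, 2 lower) in the fit of those groups alone, and 5 (2 higher, 3 lower) without prp-19-labelled replicate 3. The fall of wdr-23 was not called with library totals (adjusted p = 0.112). The transcript of daf-16, a transcriptional activator of sod-3, was 192 ± 5.21 and 190.4 ± 1.97 CPM there (SD, n = 3; log2 change -0.015, edgeR adjusted p = 0.938), or 0.25 (adjusted p = 0.0274) with library totals. By the prp-19 label it was lower, at 130.2 ± 27.3 CPM without atp-2 RNAi (SD, n = 3; log2 change -0.56, adjusted p = 0.0004641) and 133 ± 13.5 CPM with it (log2 change -0.52, adjusted p = 0.0009844). With library totals the former was -0.10 (adjusted p = 0.321). The mRNA of skn-1, a regulator of detoxification genes, was not called in either atp-2 contrast (0.18, adjusted p = 0.109, and 0.19, adjusted p = 0.185). On control bacteria it was called with library totals (0.45, adjusted p = 0.0001738), in the fit of those groups alone (0.20, adjusted p = 0.007641) and without prp-19-labelled replicate 1 (0.17, adjusted p = 0.04997). It was called in the prp-19-labelled libraries without replicate 3 (0.28, adjusted p = 0.008671).

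Other genes known as DAF-16 targets moved in both directions. Of 9 tested, 2 rose and 5 fell with atp-2 RNAi in the control libraries (median -0.41), and 1 rose and 4 fell in the prp-19-labelled libraries (median -0.26). The latter count of 5 was 3 in the fit of those groups alone and without doubly labelled replicate 2 or 3. The metallothionein mtl-1 was 768 ± 35.1 CPM in the control libraries and 389 ± 9.72 CPM with atp-2 RNAi (SD, n = 3; log2 change -0.98, edgeR adjusted p = 0.001415). The small heat shock gene sip-1 rose by 1.78 (adjusted p = 8.091e-07). By the prp-19 label without atp-2 RNAi, 6 of the 9 were lower and 1 higher. mtl-1 was then at 49.5 ± 17.0 CPM (SD, n = 3; log2 change -3.96, adjusted p = 2.343e-08), and icl-1, of the glyoxylate cycle, went from 2663 ± 97.4 to 746 ± 139 CPM (SD, n = 3; log2 change -1.83, adjusted p = 4.483e-11).

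**Figure D5:**
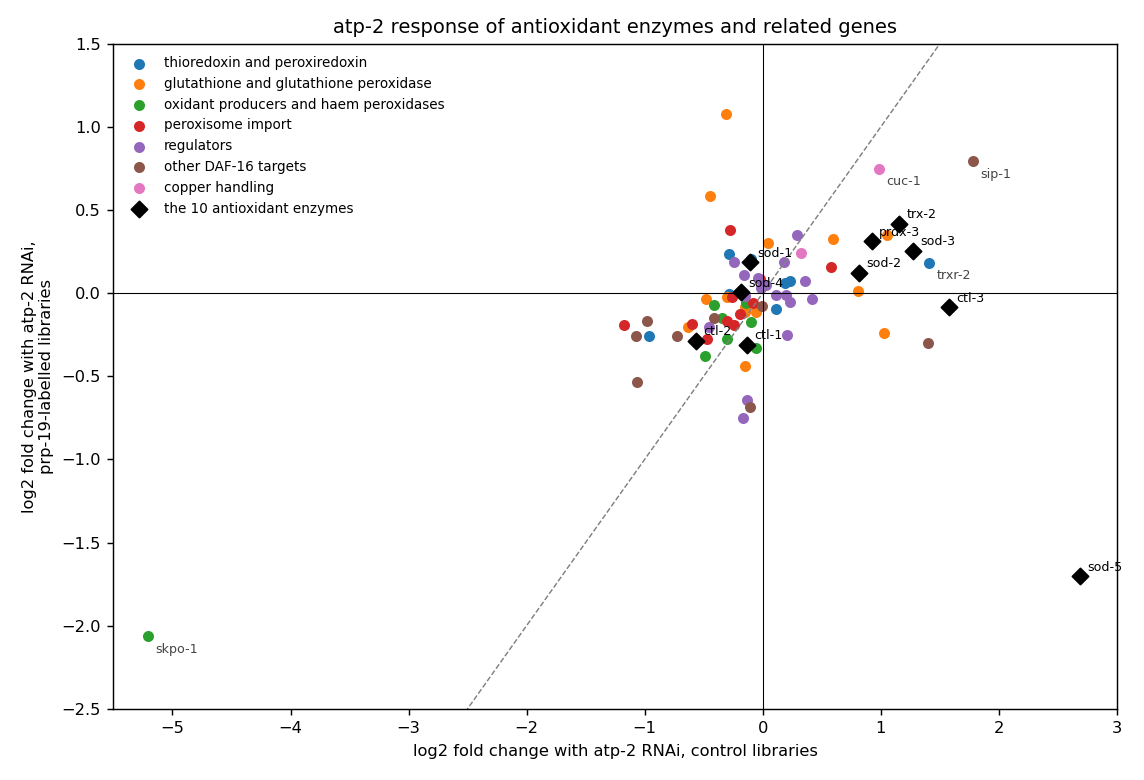
Each point is a gene, with its log2 fold change with atp-2 RNAi in the control libraries on the horizontal axis and in the prp-19-labelled libraries on the vertical axis (different scales; the dashed line marks equal changes). Black diamonds are the 10 antioxidant enzymes and colours mark the 7 lists; sod-2, sod-3, prdx-3, trx-2 and trxr-2 lie right of 0 and below the dashed line, and skpo-1 is far left at -5.21.

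The genes whose levels over the 12 libraries were most like those of a member were found among 9286 or 9287 genes averaging 5 CPM or more, by Pearson's r of log2 CPM. These values describe likeness only, since the points share libraries and fall into 4 groups. For sod-1 the closest gene was prdx-2 (r = 0.998), the cytosolic peroxiredoxin described above. sod-3 was closest to gpd-3 (r = 0.996), which encodes the glycolytic enzyme glyceraldehyde-3-phosphate dehydrogenase. prdx-3 was closest to C34B2.8 (r = 0.995), trx-2 to F17A9.4 (r = 0.99) and sod-2 to F53F4.25 (r = 0.989). Among the others, sod-4 was closest to T28F4.1 (0.986), ctl-2 to C30G12.2 (0.990), ctl-1 to T22B7.7 (0.977), ctl-3 to ddx-17 (0.978) and sod-5 to imp-3 (0.946).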

How the data were processed

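The authors deposited 1 table of raw read counts per gene for 12 libraries. The submitters' processing notes name FastQC, STAR 2.7.5c, HISAT2 2.1.0, R 4.0.5 and DESeq2 with the builds ce11 and WBcel235. Their roles are not stated, nor are the counting program, the use of strand or the handling of multiply mapped reads. Columns were matched to samples by title, and replicate origin is not stated, so p-values measure spread between these libraries, which may be technical.

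Counts were fitted with edgeR 4.0.16 in R 4.3.3 (filterByExpr by group, TMM factors, robust quasi-likelihood, 1 coefficient per group, 8 residual degrees of freedom). Standard errors were taken as |log2 change| over the root of F, and 95% intervals used 8 degrees of freedom. The test itself adds degrees of freedom from a prior estimate of spread. The printed and drawn intervals can therefore be wider than its p-values imply. CPM are TMM-scaled counts. RPKM divides them by exon-union length in Ensembl release 115 (WBcel235), to which 42478 of 45132 genes were matched. The fit was also run on simulated counts with the same spread in all groups, which does not cover the unequal spread of these groups. Replicate chi-squares over genes with at least 10 counts exceeded 1 per degree of freedom in every pair, so all libraries were kept as separate. Related genes named were the 2 highest and 2 lowest called genes of each list and contrast, among genes averaging 5 CPM or more, and some of these are described in further contrasts. daf-16 and skn-1 fall outside this rule and were chosen after their values were seen. Members and lists were chosen with earlier results of these data known. Alternatives were RLE factors, library totals, TMM without vitellogenin genes, no filter, DESeq2 1.42.0, a replicate block, only the groups compared, and each library left out.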

Additional observations from a re-analysis of the deposited data

Results flagged for a closer look

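The atp-2 response was compared between the RNAi backgrounds by the interaction term of the edgeR fit, called at an adjusted p under 0.05. Given here are all called members and, from each list, at most the 2 highest and 2 lowest called genes averaging 5 CPM or more. The glutathione list and the other DAF-16 targets each had 6 genes called, so not all of theirs are given. Values are the log2 change in the prp-19-labelled libraries minus that in the control libraries. Among the antioxidant enzymes they were -1.02 for sod-3, -0.69 for sod-2, -0.61 for prdx-3, -0.74 for trx-2, -1.66 for ctl-3 and -4.39 for sod-5. In the thioredoxin and peroxiredoxin list they were -1.23 for trxr-2, 0.30 for prdx-2 and 0.52 for sesn-1. In the glutathione list gcs-1 gave 0.45, gpx-7 1.03, gpx-3 -1.26 and gpx-6 -0.79. The peroxidase skpo-1 gave 3.14, from a level of 6.13 CPM in the prp-19-labelled libraries without atp-2 RNAi. Of the peroxisome genes, prx-1 gave 0.66, prx-11 0.99 and prx-19 -0.42. Of the regulators, akt-1 gave -0.51 and atfs-1 -0.45. Of other DAF-16 targets, mtl-2 gave 0.53, lys-7 0.82, sip-1 -0.99 and hil-1 -0.57. Several of these calls were fragile. Of 18 alternatives, the call was lost in 12 for prdx-2, whose sign changed in 1 more, 11 for gpx-6 (without prp-19-labelled replicate 3 it was -0.64, adjusted p = 0.0797), 9 for atfs-1, 8 for akt-1, 4 each for gpx-7 and prx-1, 3 each for sesn-1 and sip-1, and 1 each for gcs-1 and mtl-2. For the other 13 genes it was lost in none of the 18. sod-5 passed the filter on low counts mainly through the group in which it was high, so its difference followed in part from that choice. With 3 libraries a group, no group was large enough for a search for outlying samples.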

How the results depend on the processing

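Of 1126 values of the members' log2 changes under the alternatives, 1038 kept their sign and side of the threshold, 62 lost a call and 9 gained one. Another 13, of values with no call under either setting, changed sign, 10 of them with library totals. In 4 more the sign changed where a call was involved, all with library totals: in the prp-19-labelled libraries against control, sod-2 became 0.12, ctl-1 0.014 and trx-2 0.30, and for both RNAi labels against control sod-2 became 0.17. Of 2129 values of related genes, 131 lost a call, 5 gained one, 3 uncalled ones changed sign, and 4 with a call under either setting changed sign with library totals: cua-1 became 0.20 by the prp-19 label without atp-2 RNAi, the interaction of prdx-2 became -0.037, and with atp-2 RNAi on control bacteria prdx-2 became 0.17 and daf-16 0.25. Of 791 list counts, 60 moved by over 1.5 times. The number of members called for atp-2 RNAi in the prp-19-labelled libraries, 5, became 2 with library totals, 3 with DESeq2, 1 in the fit of only the groups compared, and 1 to 6 with each replicate left out. sod-5 had no adjusted p from DESeq2 and failed the filter in the 6-library fit there. The other 5 counts of members stayed within 1.5 times. With a replicate block that count was 4, and the others were 7, 8, 10, 7 and 6. The block rests on a number only: same-numbered libraries deviated together with a correlation above 0.1 in 1 of 18 pairs, and 6 of 12 libraries correlated best with their own number. Lengths from the longest transcript moved 4 of 40 RPKM values by more than their SD, those of sod-4. With sod-5 at 2 to 30 counts and ctl-3 at 20 to 111, counting error limits the size of their changes.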
